A study of Drosophila melanogaster with 2 samples.

Results

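The genes of the male dosage compensation machinery were examined for binding of sisA, a basic leucine zipper protein, in Drosophila melanogaster embryos. The genes were msl-1, msl-2, msl-3, mle, mof, lncRNA:roX1, lncRNA:roX2 and Clamp. They were taken by name from the dm6 annotation, each with its gene body and 10 kb to each side. All 8 names were found, among 17206 protein-coding and noncoding RNA genes on the 6 chromosome arms, and their regions were 21.4 to 25.9 kb long. Whole embryos aged 0 to 18 h carried a sisA-eGFP fusion, and chromatin sheared by sonication to 200 to 800 bp was precipitated with an anti-GFP antibody. There were 2 biological replicates of this 1 group, labelled as the sisA-GFP strain. The sex of the embryos was not collected, so male and female embryos cannot be told apart, and the cells of a whole embryo are pooled. Each sample pools the whole age window.

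Dosage compensation in the fly raises transcription of the single male X chromosome. The male-specific lethal (MSL) complex, made of the MSL1, MSL2, MSL3, MLE and MOF proteins and the roX RNAs, spreads along that chromosome and acetylates histone H4, while the zinc finger protein CLAMP recognises the GA-rich sites where the complex loads. In females the Sxl protein blocks translation of msl-2 mRNA and so prevents assembly of the complex, and sisA is one of the X-linked genes whose dose turns Sxl on in early female embryos.

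The files were lists of peaks. The conservative list, which the authors made from both replicates together, held 5202 peaks that passed an irreproducible discovery rate (IDR) of 0.01, which corresponds to a score of 830 on a scale that ends at 1000. A longer list held 5643 peaks, and each replicate had a list of its own, of 4751 peaks for replicate 1 and 3485 for replicate 2. A ranked list of 119200 peaks held all conservative peaks. It also held 217 others at or past that score, of which 0 were in the regions described here, and the peaks below it. The signal of a peak is the authors' own value, without a stated normalization, and it is used here only to rank or describe peaks within a list. The conservative list had a median signal of 127, with quartiles of 85.9 and 219, and the ranked list had a median of 22.2. The read depth of the replicates is unknown, and a control library was not analysed here. With 1 group there is no contrast between conditions to test, so the genes are described beside all genes, without p-values.

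sisA peaks lay near most of the 8 genes but rarely at their own promoters. A conservative summit fell in the region of 7 of the 8 genes, all but Clamp, against 61.9% of all genes. Of the 6 protein-coding genes, 5 had one, against 63.9% of all protein-coding genes. A summit within 1000 bp of a transcription start site (TSS) was found for 1 of the 8, msl-1, against 19.2% of all genes. No conservative summit lay inside any of the 8 genes, where 11.6% of all genes had one. With 8 genes these shares are coarse, and nothing particular to the group is read from them.

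In all, 15 conservative summits fell in the 8 regions, 12 of them upstream and 3 downstream of the gene. That is 1.88 summits per region, against 1.30 over all genes, or 7.87 summits per 100 kb of region, against 5.02. For 13 of the 15 the nearest TSS belonged to a different gene, as it did for 78.3% of the pairs of a gene and a summit in its region over all genes. A TSS of some gene lay within 500 bp of 11 of the 15, 10 times that of a protein-coding gene, against 39.5% of all conservative summits on the arms. Whether this difference exceeds chance was not tested. Signals ran from 65.9 to 372 with a median of 121, and 6 of the 15 were above the median of the conservative list. The score reached 1000 for 13 of the 15, among them a peak whose signal ranked 4171 of 5202. The share of the whole conservative list with that score is not given here.

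**Figure D1:**
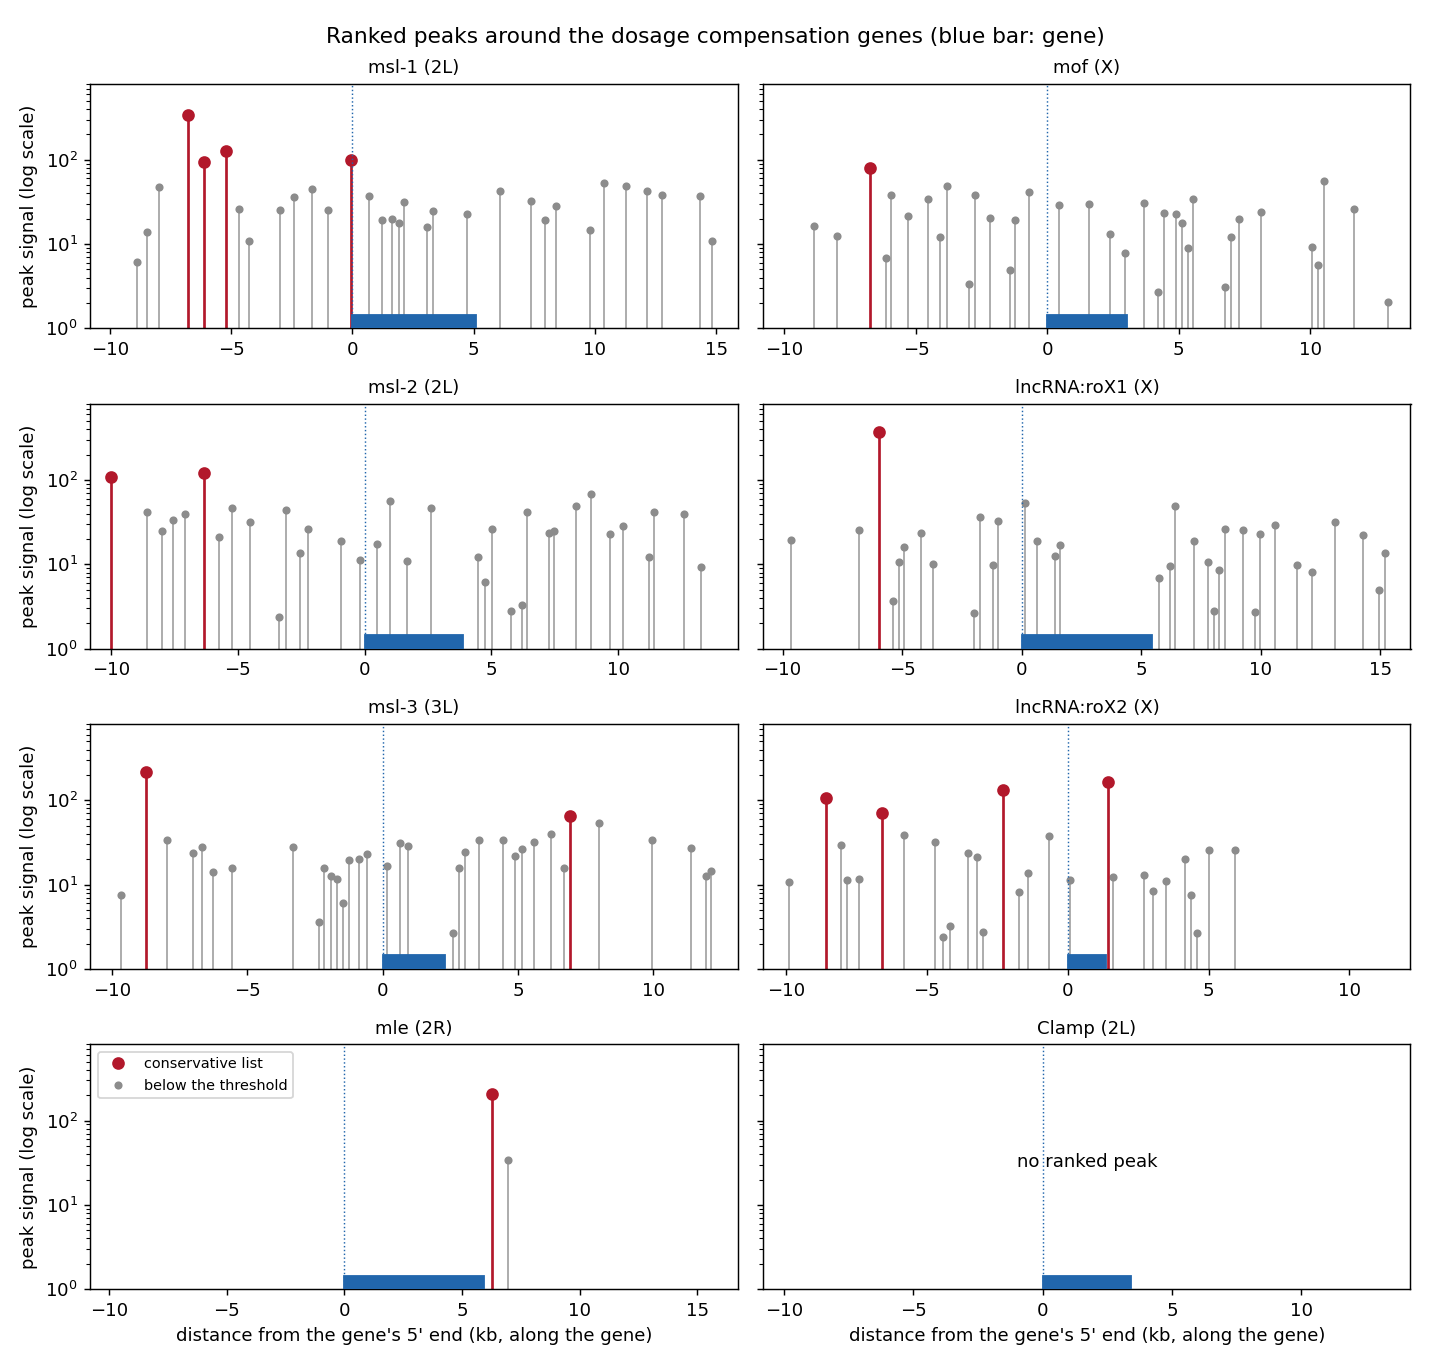
Peaks of the ranked list around each of the 8 genes, with the distance of the summit from the 5' end of the gene (kb, along the direction of transcription) on the x axis and the peak signal (log scale) on the y axis. Red points are conservative peaks, grey points are the other ranked peaks, all of them below the IDR threshold, and the blue bar is the gene. Red points stand beside 7 genes and on none of the blue bars, and the Clamp panel has no point.

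The gene msl-1 (FBgn0005617, minus strand, chr2L:18683720-18688800) encodes the scaffold on which the other MSL proteins assemble, and it was the single member with a summit at its promoter. That summit lay 75 bp upstream of the TSS, between genes, with a signal of 98.4, which ranked 3429 of 5202. Its signal was 47.2 in replicate 1 and 50.9 in replicate 2, with scores of 953 and 940, so the peak passed the threshold in each replicate alone. Only 2.99% of all genes had a conservative summit nearer to a TSS. By height it was an ordinary peak, below the median of its list.

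The sequence of this promoter summit is shown because no other conservative summit lay within 1000 bp of a member's TSS. It is the plus strand of dm6, chr2L:18688825-18688925, with the summit at the middle base, and it holds none of the motif words searched below, so no letter is in capitals.
msl-1 promoter summit: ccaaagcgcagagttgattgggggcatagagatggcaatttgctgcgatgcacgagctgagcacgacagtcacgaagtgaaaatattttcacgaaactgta

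A cluster of 3 further summits lay 5223, 6102 and 6771 bp upstream of msl-1, at the 5' part of the neighbouring gene CG10383. The farthest was the strongest of the msl-1 region, with a signal of 340 that ranked 685, and it lay 31 bp downstream of the TSS of CG10383. Replicate 1 gave it 195 and replicate 2 gave it 137, with scores of 1000 in both. The other two, in an intron of CG10383, had signals of 127 at 5223 bp and 95.3 at 6102 bp. They passed the threshold in replicate 1 with scores of 1000 but not in replicate 2, where the scores were 684 and 656. With 4 summits the msl-1 region was among the fuller ones, since 7.87% of all genes had at least as many.

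The gene msl-2 (FBgn0005616, minus strand, chr2L:3462218-3466112) encodes the RING finger protein that limits assembly of the complex to males. It had no conservative summit in the gene or within 1000 bp of its TSS. Its nearest lay 6338 bp upstream, 153 bp upstream of the TSS of Pgant4, which encodes a glycosyltransferase that starts O-linked chains. This summit had a signal of 121 in the conservative list, 70.1 in replicate 1 and 48.5 in replicate 2, with scores of 1000 in both. A second summit, 9974 bp upstream and so just inside the 10 kb limit, lay 257 bp upstream of lncRNA:CR43928, with a signal of 107 in the conservative list, 56.9 in replicate 1 and 49.0 in replicate 2.

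Inside msl-2 itself all ranked peaks had scores below the threshold. The strongest ranked peak of the gene had its summit 989 bp downstream of the TSS, in coding sequence, with a signal of 56.8 and a score of 68. The replicates differed on it. Replicate 1 gave it 36.1 with a score of 795, close to the threshold, and replicate 2 gave it 15.4 with a score of 69. The nearest ranked summit to the TSS, 196 bp upstream, had a signal of 11.4 and a score of 28, the lowest score given in the ranked list.

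The gene msl-3 (FBgn0002775, minus strand, chr3L:7123213-7125533) encodes the chromodomain subunit that reads methylated histone H3 on transcribed genes. Its strongest summit lay 8735 bp upstream, 248 bp upstream of the TSS of melt, with a signal of 216 that ranked 1328. Replicate 1 gave this peak 121 and replicate 2 gave it 93.5, with scores of 1000 in both. The other, 6923 bp downstream of the TSS, was the weakest of all 15, with a signal of 65.9 and a score of 901, and lay in coding sequence of the formin gene form3. Its summits in the replicates were 94 and 70 bp away on opposite sides, and only replicate 2 passed the threshold, with a score of 838 against 440 in replicate 1. The msl-3 TSS was the nearest to this summit although form3 holds it. Within msl-3 the strongest ranked peak, 651 bp downstream of the TSS, had a signal of 31.3 and a score of 106.

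The gene mof (FBgn0014340, minus strand, chrX:5873840-5876853) encodes the acetyltransferase of the complex. Its single conservative summit lay 6729 bp upstream in an intron of lncRNA:CR45668, 2763 bp from the nearest TSS, that of CG16721. The signal was 78.9, which ranked 4171. Replicate 1 gave it 45.5 with a score of 732, and replicate 2 gave it 34.6 with a score of 533, so neither replicate alone passed the threshold. In the replicates' own lists the nearest summit was 15394 bp away in replicate 1 and 10494 bp away in replicate 2. The next conservative summit, with a signal of 82.99, lay 10488 bp upstream, just outside the region. Nearer to mof, a ranked peak 679 bp upstream of the TSS, in coding sequence of Usp30, had a signal of 41.5 and a score of 212.

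The windows at the nearest summits of msl-2 and mof are shown because each holds the word AGATGGCG in 2 places, which was noticed when the sequences were read and is counted with the other words below. Both are plus-strand dm6 sequence with the summit at the middle base, chr2L:3472400-3472500 for msl-2 and chrX:5883532-5883632 for mof, and the capitals mark that word.
msl-2 summit at -6338: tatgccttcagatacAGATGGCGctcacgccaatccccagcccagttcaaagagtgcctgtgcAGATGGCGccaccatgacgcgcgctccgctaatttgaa
mof summit at -6729: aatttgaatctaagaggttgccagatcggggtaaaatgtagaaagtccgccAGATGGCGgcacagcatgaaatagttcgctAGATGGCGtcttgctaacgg

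The noncoding RNA lncRNA:roX1 (FBgn0019661, minus strand, chrX:3857230-3862697, with 3 TSSs) is made from the X chromosome and coats it together with the MSL proteins. The region held the strongest peak of all 8 genes, with a signal of 372 that ranked 583 of 5202. It was seen at 198 in replicate 1 and 175 in replicate 2, with scores of 1000 in both. The summit lay 5951 bp upstream of roX1 and 317 bp upstream of a TSS of yin, a peptide transporter gene, within an intron of a longer yin transcript. The roX1 gene itself had 4 ranked peaks below the threshold. The strongest had its summit 124 bp upstream of one of the TSSs, in an exon of a transcript that starts farther upstream, with a signal of 53.7 and a score of 287. Replicate 1 gave it 34.7 with a score of 706, and replicate 2 gave it 21.6 with a score of 188.

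The roX1 windows show the strong distal summit and the weak one at the gene. The distal window, chrX:3868548-3868748, has 100 bases to each side of the summit, and the window at the gene, chrX:3862499-3862599, has 50. Both are plus-strand dm6 sequence, and the capitals mark the word GCAGCTG on either strand, which runs on into an overlapping match at the end of the first. This word did not occur within 50 bases of the strong summit, nor within 100 bases of the weak one.
roX1 summit at -5951: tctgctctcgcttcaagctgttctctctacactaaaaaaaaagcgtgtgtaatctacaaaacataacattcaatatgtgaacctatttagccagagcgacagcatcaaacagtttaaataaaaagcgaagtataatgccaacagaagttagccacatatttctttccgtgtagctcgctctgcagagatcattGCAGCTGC
roX1 weak summit at -124: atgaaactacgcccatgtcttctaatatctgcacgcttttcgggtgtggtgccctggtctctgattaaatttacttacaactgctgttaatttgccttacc

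The other roX gene, lncRNA:roX2 (FBgn0019660, plus strand, chrX:11579065-11580432), encodes the shorter and functionally overlapping RNA. Its region held 4 conservative summits, as many as that of msl-1. The nearest lay 1419 bp downstream of the TSS, only 52 bp past the 3' end of roX2 and 288 bp upstream of nod, which encodes a kinesin-like protein of chromosome segregation. Its signal of 166 ranked 1911, with 85.0 in replicate 1 and 79.0 in replicate 2. The summit 2287 bp upstream, 105 bp from the TSS of CG11695, had a signal of 133, with 73.2 in replicate 1 and 59.7 in replicate 2. The summit 8576 bp upstream, 132 bp from CG11699, had a signal of 106, with 43.2 in replicate 1 and 61.6 in replicate 2. These 3 peaks scored 1000 in both replicates. The last, 6578 bp upstream and 45 bp from the TSS of the kinetochore gene Kmn1, was weak, with a signal of 70.1 and a score of 877. It passed the threshold in neither replicate alone, with scores of 293 in replicate 1 and 808 in replicate 2. Each of the 4 summits of the roX2 region thus stood at the promoter of a neighbour.

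The 3' part of roX2 is of interest because it carries GA repeats of the kind known to recruit CLAMP and the MSL complex. The repeat GAGAGAGA occurred at 2 places in the roX2 exon, 1151 and 1205 bp downstream of the TSS, and the conservative summit past the gene end lay 268 and 214 bp from them. No peak of the ranked list or of either replicate's ranked list overlapped either repeat. With fragments of 200 to 800 bp, these distances are comparable to the length of a fragment. The word was absent from roX1, and it also occurred inside msl-1, 2600 bp downstream of the TSS, and inside mle, 2046 bp downstream of a TSS. Only this exact word was searched, so inexact GA repeats were not counted. The sequences below are plus-strand dm6, chrX:11580191-11580241 and chrX:11580245-11580295 for the roX2 repeats, and chrX:11580434-11580534 for the summit past the gene end. Each repeat window has 25 bases to each side of a base in the middle of the repeat. The capitals mark the repeat on either strand, and the summit window has none.
roX2 GA repeat at +1151: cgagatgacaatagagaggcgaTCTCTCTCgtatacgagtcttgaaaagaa
roX2 GA repeat at +1205: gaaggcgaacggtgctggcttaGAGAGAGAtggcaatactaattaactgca
roX2 summit at +1419: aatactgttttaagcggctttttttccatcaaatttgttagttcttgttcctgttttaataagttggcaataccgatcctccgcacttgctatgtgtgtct

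Motif words were counted within 100 bp of the 15 summits, on both strands. The 8 words were the GA repeat GAGAGAGA, the DNA replication-related element TATCGATA, the E-box CACGTG, the cyclic AMP response element TGACGTCA, the AP-1 site TGACTCA, the C/EBP site TTGCGCAA, and the words TGACGCA and GCAGCTG, and no word contains another. GCAGCTG was found at 3 of the 15 summits (20%), those 5223 and 6102 bp upstream of msl-1 and the one 5951 bp upstream of roX1. The share was 3.60% of the 5133 conservative summits on the arms and 4.50% of 19253 protein-coding promoters, taken as the 201 bases that end at the TSS. For any of the 8 words the shares were 20% of the 15 summits, 11.6% of the conservative summits and 18.5% of the promoters. None of the 3 matches lay within 50 bp of the summit, and 2 of these peaks are neighbours in the same gene. The 8 words were chosen with earlier results of these data known, and the difference in shares was not tested. The other 7 words were absent from all 15 windows, each being present at 0.234% to 2.36% of all conservative summits and 0.203% to 6.21% of promoters. The word AGATGGCG, chosen because it was seen in these windows, was also at 3 of the 15, beside msl-2, mof and the roX2 summit near CG11699. It was at 1.58% of all conservative summits and 0.701% of promoters, and since the windows chose the word, this share is a description only.

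The gene mle (FBgn0002774, minus strand, chr2R:5974857-5980778, with 2 TSSs) encodes the RNA helicase that remodels the roX RNAs for entry into the complex. Its single conservative summit lay 338 bp beyond the 3' end of the gene, 5582 bp downstream of the nearer TSS. This was also the promoter side of BubR1, a spindle checkpoint gene, whose TSS was 134 bp away. The signal of 205 ranked 1434, with 102 in replicate 1 and 103 in replicate 2 and scores of 1000 in both. Apart from this peak the mle region was nearly empty. The ranked list held 2 peaks there, the other with a signal of 34.2 and a score of 91, and neither was in the gene. Replicate 1 alone had 8 ranked peaks in the region and replicate 2 alone had 1. Only 5.08% of all genes had fewer ranked peaks in their region. The next conservative summit lay 72118 bp from the gene, with a signal of 152.

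The gene Clamp (FBgn0032979, minus strand, chr2L:22165720-22169143) encodes the zinc finger protein that binds GA repeats and brings the MSL complex to the X. It was the one gene of the 8 whose region held no peak of any list, thresholded or ranked. The regions of 4.21% of all genes likewise had no summit of the ranked list. The nearest conservative summit was 57402 bp away, with a signal of 70.4 and a score of 935, and 93.5% of all genes had a nearer one. The nearest ranked summit was 53169 bp upstream and the next on the other side 135704 bp from the gene. Together they bounded a stretch of 192 kb, one of the 7 longest intervals of 116012 between neighbouring ranked summits or arm ends. In the replicates' ranked lists the empty stretch was 77.2 kb in replicate 1 and 140 kb in replicate 2.

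The sparse peaks at Clamp and mle extended to their surroundings. Within 500 kb of Clamp, 39 of 66 genes (59.1%) had no ranked summit in their region, and within 500 kb of mle the count was 14 of 66 (21.2%). For the other 6 genes it was between 0% and 1.16%. Ranked summits numbered 21.0 per 100 kb around Clamp and 42.1 around mle, against 87.7 to 115.5 around the other 6 and 86.6 over the arms. The share of bases marked as repeats by lower case in the reference was 32.4% around Clamp and 25.03% around mle, against 14.9% to 23.5% around the other 6 and 20.1% over the arms. In the regions themselves it was 27.0% for Clamp and 17.0% for mle, against 6.59% to 13.4% for the rest. The part of repeats or of read mapping in these low counts was not tested.

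**Figure D2:**
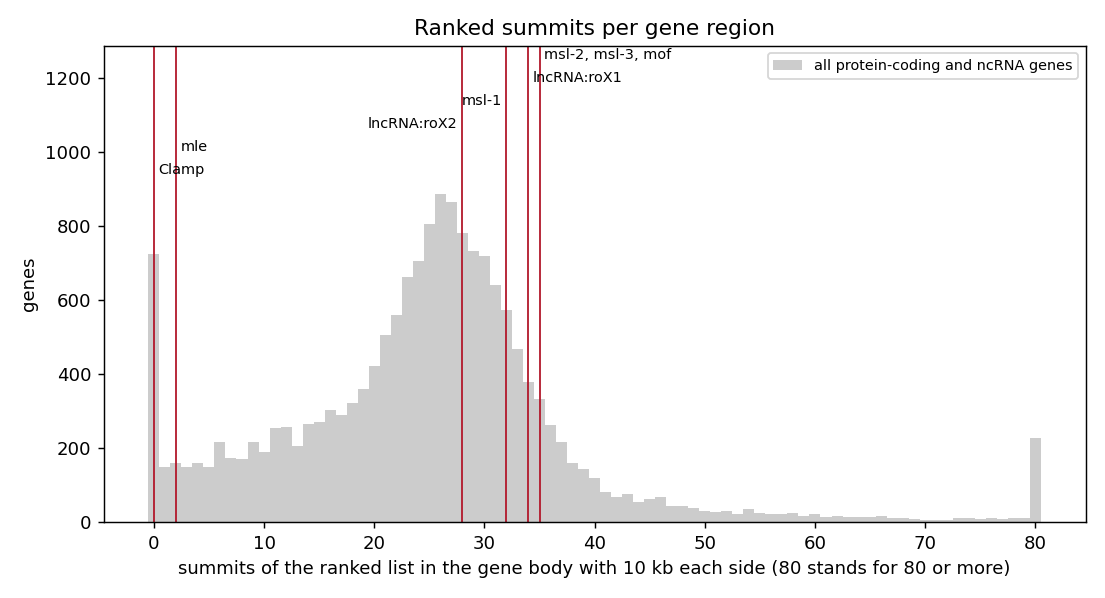
Number of genes (y axis) by the count of ranked summits in the gene body with 10 kb to each side (x axis, with 80 standing for 80 or more), as grey bars over 17206 genes, with red lines at the 8 dosage compensation genes. Clamp at 0 and mle at 2 stand at the low end, and the other 6 lie between 28 and 35, above the median of 25.

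Below the threshold the regions held 186 ranked peaks, none of which stood near the threshold by its score in that list. Their scores ran from 28 to 446, against 877 for the lowest score among the 15 conservative peaks of these regions. Their signals had a median of 20.3 and a maximum of 67.9. Signals in the whole conservative list went down to 2.04. The weakest of the 15 had 65.9, and 1 of the 186 peaks was above it. This was a peak 94 bp from the TSS of the exocyst gene Sec5, in the msl-2 region, with a score of 57. Replicate 1 gave it a signal of 56.3 and a score of 1000, replicate 2 had no match within 100 bp, and the longer list kept it. A peak 6722 bp downstream of the msl-3 TSS, in form3, was also in the longer list, and in the list of replicate 2 with a score of 838 and a signal of 15.9. This peak overlapped the conservative form3 peak described above, so it may not be a separate site. Another 2 passed in 1 replicate alone. They were a peak 11271 bp downstream of the msl-1 TSS, with a score of 969 in replicate 1, and a peak 5771 bp downstream of a roX1 TSS, with a score of 919 in replicate 2. All members but mle and Clamp, 6 of 8, had a ranked summit at most 1000 bp from a TSS, against 80.4% of all genes. The same 6 had one inside the gene, against 72.7% of all genes. The strongest ranked peak below the threshold in the gene or within 1000 bp of a TSS had a signal of 36.9 for msl-1, 56.8 for msl-2, 31.3 for msl-3, 41.5 for mof, 53.7 for roX1 and 37.4 for roX2. The upper quartile of the whole ranked list was 33.4. Each gene's value is the highest of several peaks, so this quartile of single peaks is not a like measure. Of the 186 peaks, 71 had a match in both replicates' ranked lists and 36 in neither. The same shares over all ranked peaks are not given here, so these counts are not read as particular to the regions.

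Since the conservative list was made from both replicates, part of their agreement on the 15 peaks is set by that selection. All 15 had a summit within 100 bp in both ranked lists, with a largest shift of 94 bp, as did 94.4% of all conservative summits on the arms. In the thresholded lists, 12 of the 15 were found in replicate 1, against 75.8% of all conservative summits, and 11 in replicate 2, against 62.0%. Both lists held 10 of the 15, against 57.5%, and neither held 2, those near mof and Kmn1, against 19.7%. Counted by gene, 6 of the 8 had a summit in the region in replicate 1, against 60.2% of all genes. In replicate 2 it was again 6 of the 8, against 50.6% of all genes. The gene lost in both was mof. The strongest peaks held similar places in both lists. The roX1 peak ranked 650 in replicate 1 and 572 in replicate 2, and the strongest msl-1 peak ranked 674 in replicate 1 and 825 in replicate 2. The Kmn1 peak ranked 8761 in replicate 1 and 4728 in replicate 2, the largest difference in rank of the 15. The roX2 peak near CG11699 ranked 4851 in replicate 1 and 2515 in replicate 2, the largest ratio of ranks.

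**Figure D3:**
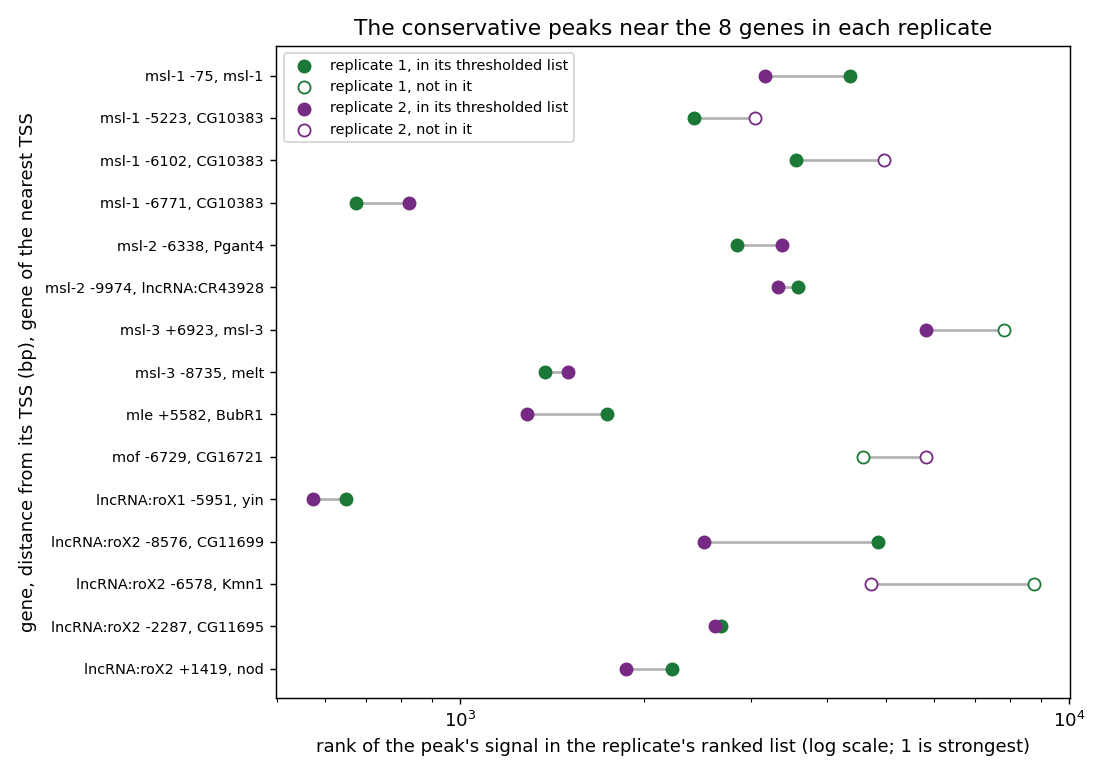
The 15 conservative peaks, one per row, named by the gene of the region, the distance from its TSS (bp) and the gene of the nearest TSS, with the rank of the matched peak's signal in each replicate's ranked list on the x axis (log scale, 1 is strongest). Filled points were in that replicate's thresholded list and open points were not. Both points are filled in 10 rows and both are open in 2, the rows of CG16721 and Kmn1.

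Distances to the nearest conservative summit placed 5 of the 8 genes near the middle of all genes. These were mle at 5582 bp, roX1 at 5951 bp, msl-2 at 6338 bp, mof at 6729 bp and msl-3 at 6923 bp, beside a median of 7453 bp and quartiles of 1951 and 18809.5 bp over all genes. The genes msl-1 at 75 bp and roX2 at 1419 bp were nearer than the lower quartile, and Clamp at 57402 bp was beyond the upper one. Outside the 10 kb limit, the next summits were 11274 bp from msl-2, 14534 bp from msl-1, 18436 bp from roX1, 18629 bp from roX2 and 26501 bp from msl-3.

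Other genes of the pathway, taken from a list made for their roles, included several with sisA summits near a TSS. Earlier results of these data were known when the list was made. Of 20 such genes, 17 had a conservative summit in the region, beside 61.9% of all genes and 63.9% of protein-coding genes. Of the 20, 11 had one within 1000 bp of a TSS, beside the 19.2% of all genes. Their median distance to a summit was 599.5 bp, and that of the 8 was 6144.5 bp, a difference that was not tested. Among 4 genes that control msl-2 in females, Sxl had a summit 381 bp downstream of a TSS with a signal of 123, and Unr, the RNA-binding partner of Sxl on msl-2 mRNA, had one 89 bp upstream with a signal of 225. The splicing regulator how had its nearest at 2511 bp, and Hrb27C had none in its region. Of 6 genes for partners of MOF in the nonspecific lethal (NSL) complex, Rcd5 had a summit 114 bp upstream with a signal of 342 and nsl1 one 216 bp upstream with a signal of 107. The Rcd5 summit was nearer to the TSS of CG11593. In the same group wds and Rcd1 had summits in the region only, and dgt1 and MBD-R2 had none.

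All 7 genes for chromatin proteins of the active X and of interbands had a summit in the region, and 5 had one within 1000 bp of a TSS. The highest signal was at Chro, which encodes an interband chromodomain protein, with 2310 at 89 bp downstream of a TSS, ranked 9 of 5202. The others were pzg with 575, at a summit nearer to the TSS of CG12974, the histone methyltransferase gene NSD with 250, the histone kinase gene JIL-1 with 232, and Top2, a topoisomerase gene, with 134. Both genes for GA repeat binding proteins also had one, Trl, which encodes GAGA factor, with 463 and psq with 122. Syp, which encodes a protein that binds roX RNA, had its nearest summit 2301 bp away, with a signal of 61.4. Of the 11 summits within 1000 bp of a TSS, 8 were above the list's median signal and 10 were in both replicates' own lists.

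**Figure D4:**
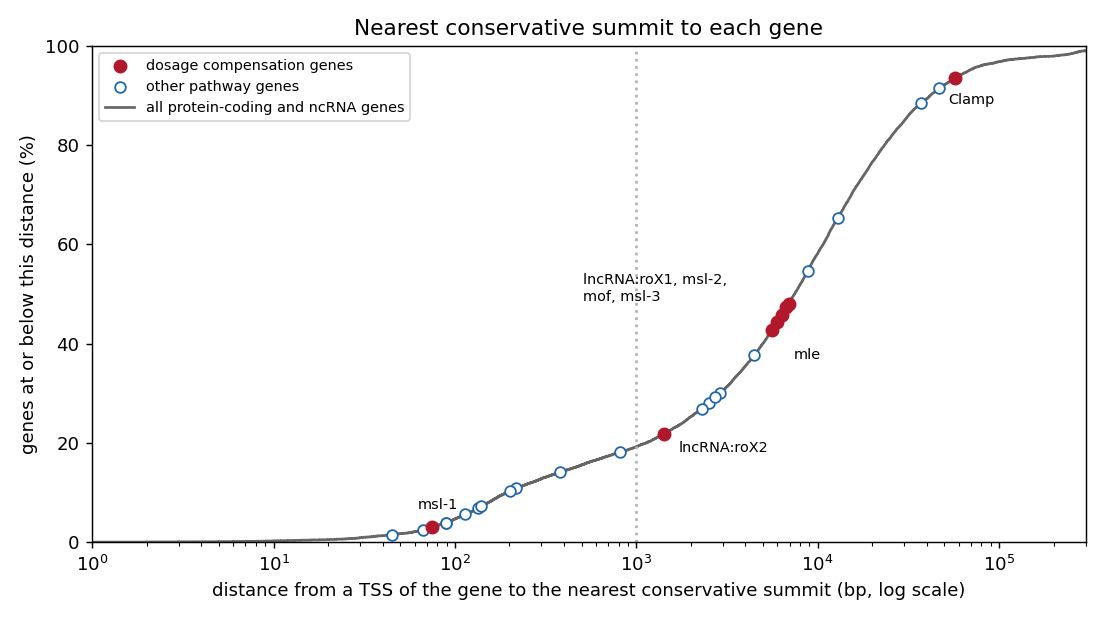
Cumulative share of genes (y axis, percent) by the distance from a TSS of the gene to the nearest conservative summit (x axis, bp, log scale), as a grey line over 17206 genes. Red points are the 8 dosage compensation genes and open blue points the 20 other pathway genes, and the dotted line marks 1000 bp, with 1 red and 11 blue points to its left, of which Chro and Unr coincide at 89 bp.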

How the data were processed

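Chromatin from whole sisA-eGFP embryos was precipitated with anti-GFP in 2 biological replicates, per the labels. For the aligner, the peak caller and their settings, names and versions were not given in the sources used here. The deposited lists give each peak's signal, whose normalization the authors do not state, a score from the IDR, and in the ranked lists the −log10 of the IDR as deposited by the authors. Read depth is unknown.

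Coordinates are 1-based dm6. Genes and TSSs came from Ensembl release 115 (BDGP 6.54) and sequence from RefSeq's copy of the same assembly, whose coordinates matched for all 8 genes. Summits were assigned to a region of the gene with 10 kb to each side, to the nearest TSS of any protein-coding or noncoding RNA gene, and to the replicates' summits within 100 bp. Ranked peaks of the 8 regions outside the conservative list were called below the threshold, since all their scores in the ranked list were under 830. Mes-4 was matched to NSD. The counting was tested on simulated data. Named genes were the 8 members, the pathway genes with a summit within 1000 bp, and the gene nearest to each conservative peak. Other genes and peaks were named after their values were seen. Members, lists and words were chosen with earlier results of these data known. Tables and figures were made with pandas 2.3.3, numpy 2.4.6 and matplotlib 3.10.9 under Python 3.11.15.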

Additional observations from a re-analysis of the deposited data

How the results depend on the processing

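Of 44 alternatives to the counts, 34 stayed within 1.5 times the reported value. With regions of 5 kb to each side 4 genes had a conservative summit, and with 2 kb 3, in place of 7, and the peaks in the regions numbered 5 and 3, in place of 15. With 20 kb the peaks numbered 29, and with the peaks above the list's median signal 6. A summit near a TSS was found for 0 genes among the peaks above the median signal and for 2 within 2000 bp, in place of 1. The shares of all genes at these other settings are not given here, so the changes are not read as particular to these genes. Motif matches numbered 0 within 50 bp of the summit and 8 within 200 bp, in place of 3. Over all conservative summits the shares with any of the words were 4.71% within 50 bp and 27.0% within 200 bp. For promoters of the same lengths they were 11.8% and 29.3%, and the differences were not tested. The word AGATGGCG, an alternative added after seeing the data, gave 3. It is counted among the 34, but it was seen in these windows first and so is no independent check.

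From either replicate alone, 6 genes had a summit in the region, with 13 to 14 peaks, and 1 had one within 1000 bp of a TSS. For the other pathway genes these counts were 17 to 19 and 10 to 12. Without replicate 1 the nearest summit to mof moved to 10494 bp and to Clamp to 221642 bp, and without replicate 2 to 15394 bp and 301670 bp. No paired analysis was possible because there is 1 group.

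Depth, input and sex are unknown, so a region without a peak cannot be told apart from one below detection.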
